A study of Rattus norvegicus with 24 samples.

Results

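Growth hormone and prolactin are peptide hormones of the anterior pituitary, where separate cells, the somatotrophs and the lactotrophs, make and store them. Both cell types descend from precursors that carry the transcription factor Pou1f1 (Pit-1), which binds and activates the genes of both hormones. Growth hormone-releasing hormone from the hypothalamus drives somatotrophs through its receptor, Ghrhr, and dopamine restrains lactotrophs through the receptor Drd2. The brain itself is known to respond to both hormones, while their messenger RNA is far more abundant in the pituitary than in brain tissue.

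The 5 genes described here are Gh1 (growth hormone), Prl (prolactin), Pou1f1, Ghrhr and Dlk1 (delta-like non-canonical Notch ligand 1, a membrane protein found in somatotrophs and also in some dopamine neurons). They were taken as every probe set whose single gene symbol in the platform annotation was one of these names, which gave 7 probe sets of the 31099 on the array. The array holds single-symbol probe sets for 14217 genes. The genes were chosen from earlier results of these same arrays, in which the hormone genes had been seen to vary in intact rats. Their differences between mating groups of that array set are therefore a description and carry no test. All 7 probe sets passed the filter on low signals, which kept 27032 probe sets. Prl and the Pou1f1 probe sets 1369761_at and 1369762_at were under the 20th percentile on every Intact-named and OVX array. Their highest percentiles there were 5.69, 3.20 and 19.1. They passed through number-named and OVX/ADX arrays, so the lack of a call among Intact-named and OVX arrays says little about them.

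The study asked how paced mating, in which the female controls her contacts with a male in a divided chamber, changes midbrain gene expression, and whether ovaries and adrenals matter for it. Adult female Long-Evans rats were either paced mated or exposed to a clean chamber with no male. Intact rats were in proestrus and kept both glands. OVX rats had lost the ovaries, OVX/ADX rats had lost the ovaries and the adrenals, and both were primed with estradiol benzoate before the test. There were 24 Affymetrix rat expression arrays in 8 groups of 3. The intact rats fall into 2 sets by title. The number-named set holds paced arrays 2543, 2538 and 2531 and chamber-exposed arrays 2526, 2536 and 2539. The Intact-named set holds Intact-1 to Intact-6, where odd numbers were paced mated. OVX-1 to OVX-6 follow the same scheme. The OVX/ADX set holds paced arrays 4123, 4125 and 2541 and chamber-exposed arrays 4124, 4126 and 2530. The study describes 6 intact rats in the behavioral test against 12 intact arrays, and the sources used here do not tell whether each set had its own rats. Tissue was taken by gross dissection from the ventral side of the brain. By the study's methods the optic chiasm marked its anterior border and the pontine regions its posterior border. The control for mating was an empty chamber, so pacing and mating cannot be told apart in this design.

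The arrays fell into 3 groups by the lowest signal per array. It was 3.58 to 3.65 for the number-named arrays, 2.30 to 2.39 for the Intact-named together with the OVX arrays and 3.38 to 3.43 for the OVX/ADX arrays. These groups were taken as 3 normalization runs, which is an inference from the values. Signals were compared only within a run, and a gene's place across runs is stated as a percentile, its rank within the single array among all probe sets. Markers of the labelled tissue were high on only some of the arrays. Th, the rate-limiting enzyme of dopamine synthesis, stood at median percentiles of 94.6 and 92.4 in the number-named and OVX/ADX sets, but of 33.6 and 36.9 in the Intact-named and OVX sets. Neurod6, a marker of cortical and hippocampal neurons, went the other way, at 47.3, 36.1, 92.4 and 91.7 in the same order of sets. Some arrays stood apart within a set. Array 2541, and to a smaller extent 2530, carried high hormone signals that the other OVX/ADX arrays lacked. Both have title numbers from the series that otherwise names intact arrays. Intact-1 and OVX-4 had more Th (7.22 and 8.60) than the other arrays of their run, on which it was 5.69 to 6.25. Results that rest on these arrays are given with and without them.

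A promoter sequence shows where Pou1f1 consensus letters lie near a hormone gene whose signal moved with that of Pou1f1 on these arrays. The reference table of promoters (RefSeq, build GRCr8) held 3 of the 5 genes in 4 windows, namely Prl, Dlk1 and Ghrhr with 2 windows. Each window was searched over the 250 bases before the annotated start for the 7 letters TATNCAT, or ATGNATA on the other strand. The only match among the 4 member windows was in the promoter of Prl, starting 24 bases before the annotated start. It is printed below 5′ to 3′ on the minus strand, from chr17:38298218-38298467, with the match in capitals.
Prl: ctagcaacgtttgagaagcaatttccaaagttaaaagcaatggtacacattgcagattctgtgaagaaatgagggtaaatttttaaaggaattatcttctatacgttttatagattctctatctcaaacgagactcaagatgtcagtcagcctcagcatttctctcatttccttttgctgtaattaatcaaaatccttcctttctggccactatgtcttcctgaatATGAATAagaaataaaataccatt
Of all 33469 promoter windows in the table, 8.73% held these letters in the same 250 bases. The match describes letters only, and these arrays do not measure binding.

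Gh1 had 2 levels on the number-named arrays. Its log2 signal (probe set 1370841_a_at) was 14.15, 13.90 and 14.07 on the chamber-exposed arrays 2526, 2536 and 2539. On the paced arrays it was 6.95 on 2543, 5.96 on 2538 and 13.33 on 2531. Of the paced arrays, only 2531 thus came near the chamber-exposed ones, and the other paced arrays lay more than 6 log2 units under it. By the labels as deposited, Gh1 was lower on arrays labelled paced mated, which is opposite to the direction given in the study. Whether the mating labels of these arrays are right was not settled by the sources used here, and had they been exchanged, every mating difference of this set would change sign. The mean was 8.75 ± 4.0 (SD, n = 3) on paced and 14.04 ± 0.13 (SD, n = 3) on chamber-exposed arrays, a difference of −5.30.

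Prl, on probe set 1398278_at, followed Gh1 with 1 array in an intermediate place. It was 14.29, 14.26 and 14.20 on the chamber-exposed arrays 2526, 2536 and 2539, and 9.89, 5.50 and 13.93 on the paced arrays 2543, 2538 and 2531. Array 2543 thus carried a Prl signal far over that of 2538, while its Gh1 signal was 0.99 over that of 2538. The group means were 9.77 ± 4.22 and 14.25 ± 0.05 (SD, n = 3 each), a difference of −4.48. Leaving out array 2538 took it to −2.34.

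The lineage factor showed the same order of arrays at much lower signals. Pou1f1 was 8.69, 7.74 and 7.87 on the chamber-exposed arrays and 5.38, 4.97 and 7.38 on the paced arrays 2543, 2538 and 2531 (probe set 1369762_at). Its other probe set, 1369761_at, read 8.46, 7.65 and 7.60 against 5.20, 5.12 and 7.02. The differences between group means were −2.19 and −2.13. Array 2526 was the highest of the 6 for Gh1, Prl and both Pou1f1 probe sets.

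Ghrhr and Dlk1 varied less. Ghrhr, the receptor through which the hypothalamus drives growth hormone release, was 7.28, 7.22 and 7.16 on chamber-exposed and 6.83, 6.74 and 7.03 on paced arrays 2543, 2538 and 2531 by probe set 1369494_a_at. By 1370730_a_at it was 7.39, 7.34 and 7.37 against 7.01, 7.13 and 7.11. The group means differed by −0.35 and −0.28. Dlk1 (1369151_at) was 9.72, 9.05 and 9.27 on chamber-exposed and 7.71, 7.99 and 8.79 on paced arrays, a difference of −1.18. Here array 2543 was the lowest of the set, whereas 2538 was the lowest for the hormones and Pou1f1.

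**Figure D1:**
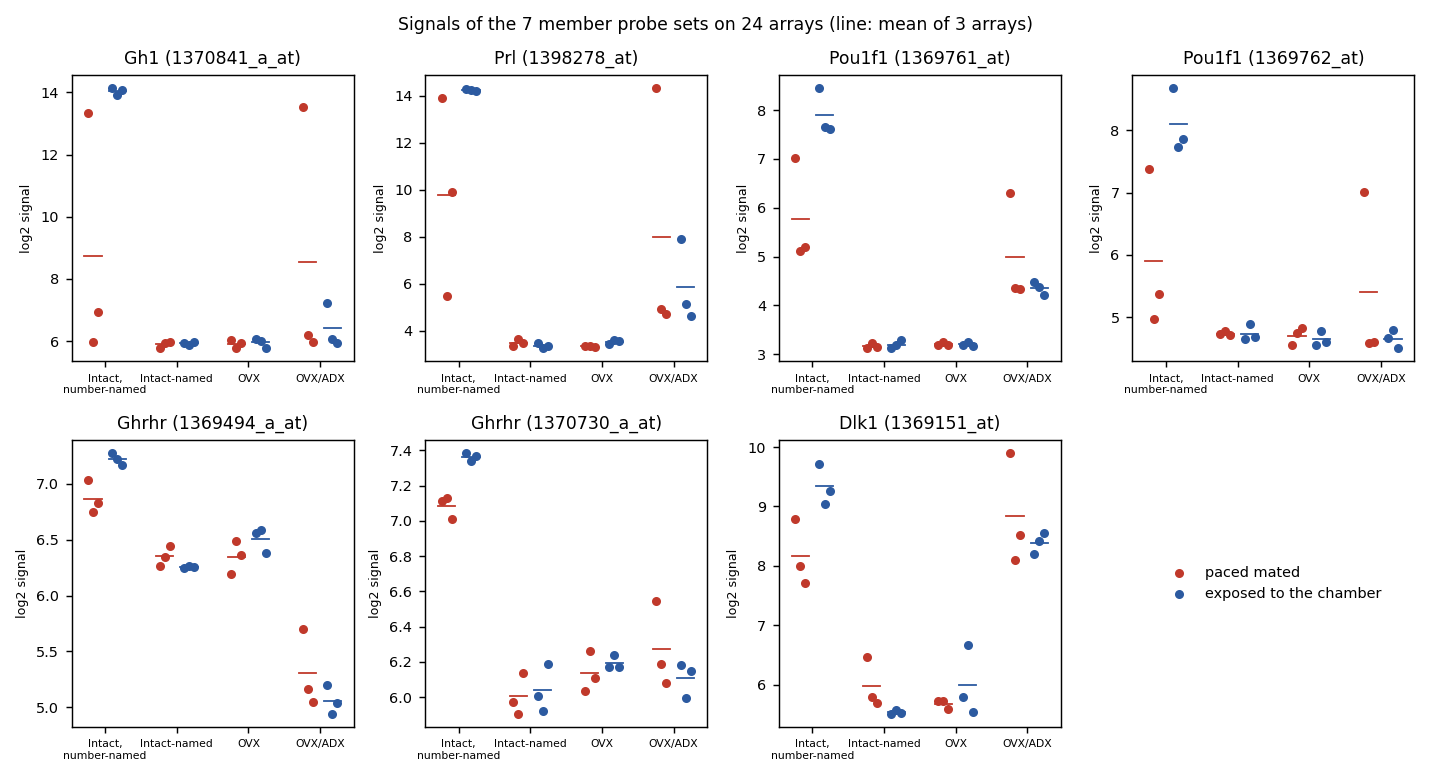
Log2 signal (y axis) of each of the 7 probe sets on the 24 arrays, by array set (x axis), with points for arrays, red for paced mated and blue for chamber-exposed, and a line for the mean of 3 arrays. The paced number-named arrays lie below the chamber-exposed ones for each probe set. Gh1, Prl and Pou1f1 vary little on the Intact-named and OVX arrays, and 1 OVX/ADX array (2541) stands above the other 5.

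In the number-named set, all 3 paced arrays lay below all 3 chamber-exposed arrays for each of the 7 member probe sets, against 8.16% of all probe sets tested. Arrays 2543 and 2538 held the lowest 2 places for 6 of the 7, against 11.6% of all, and the exception was Ghrhr by 1370730_a_at, where 2531 (7.11) read just under 2538 (7.13). Because the genes were chosen on this contrast, nothing is read from these counts. The median member difference was −2.13, beside 0.01 over all probe sets tested. The limma test on this contrast called 0.0444% of all probe sets, and no member was tested there.

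Other tissue markers differed between the same arrays in both directions. Of the 8 meningeal genes, 8 were lower on paced number-named arrays (median −0.83), as were 9 of the 9 dopamine neuron genes that passed the filter (median −0.37). Of the 7 cortex and hippocampus genes, 6 were higher there (median 0.15), as were 9 of the 10 hypothalamic neuropeptide genes (median 0.09). Limma called 0 genes in each of these 4 lists. The meningeal genes were also lower, 8 of 8, on the paced arrays of the Intact-named set (median −0.51) and of the OVX/ADX set (median −0.40). In the OVX set 5 of the 8 were higher on paced arrays (median 0.23). The median percentile of the meningeal genes ranged from 52.9 to 82.6 over the 6 number-named arrays. Their part in the member differences was not tested. Nor can fewer cells of a type and less RNA per cell be told apart in these tissue samples.

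Among the Intact-named and OVX arrays none of the 5 genes showed a spread of that size. Gh1 lay between 5.80 and 5.98 on the Intact-named and between 5.77 and 6.08 on the OVX arrays. Prl lay between 3.25 and 3.63 and between 3.29 and 3.59, at median percentiles of 4.20 and 3.96. These are low places on the array, since Gh1 itself had median percentiles of 33.3 in both sets. No detection calls were in the data used here, so a low signal is not a statement that the transcript was absent.

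Mating in Intact-named rats left the hormone genes within the spread of the arrays. Gh1 was 5.80, 5.95 and 5.96 on the paced arrays Intact-1, Intact-3 and Intact-5, and 5.93, 5.89 and 5.98 on the chamber-exposed arrays Intact-2, Intact-4 and Intact-6. They differed by −0.03 (standard error, SE, 0.10, limma adjusted p = 0.949). Prl was 3.34, 3.63 and 3.46 on paced and 3.46, 3.25 and 3.37 on chamber-exposed arrays, so the groups overlapped, with a difference of 0.12 (SE 0.09, limma adjusted p = 0.697). Of the 7 member probe sets, 0 passed the adjusted threshold of 0.05 in limma, 0 had an unadjusted p under it and 0 passed the plain per-probe-set test. Of all probe sets, 0.0259% passed limma, 10.7% had an unadjusted p under 0.05, and 5 passed the plain test.

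Groups without overlap were seen for 2 of the 7 member probe sets, against 13.9% of all probe sets. Dlk1 was 6.46, 5.79 and 5.69 on the paced arrays Intact-1, Intact-3 and Intact-5 and 5.52, 5.57 and 5.52 on the chamber-exposed ones. The difference was 0.45 (SE 0.26, limma adjusted p = 0.585), and it was 0.21 without Intact-1, the array with the higher Th signal. Ghrhr by 1369494_a_at was 6.27, 6.34 and 6.44 against 6.24, 6.26 and 6.26, a difference of 0.10 (SE 0.09, limma adjusted p = 0.763). Pou1f1 differed by −0.02 (SE 0.07) by 1369761_at and by less than that by 1369762_at.

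In OVX rats mating gave no called member either. Prl was 3.34, 3.36 and 3.29 on the paced arrays OVX-1, OVX-3 and OVX-5 and 3.43, 3.59 and 3.54 on the chamber-exposed arrays OVX-2, OVX-4 and OVX-6. These groups did not overlap, which held for 1 of the 7 member probe sets and for 6.29% of all, at a difference of −0.19 (SE 0.09, limma adjusted p = 1.00) and percentiles of 3.11 to 5.35, close to the bottom of the array. Gh1 differed by −0.04 (SE 0.10). Dlk1 differed by −0.32 (SE 0.26), and by 0.02 without OVX-4, where it was 6.67 against 5.54 to 5.79 on the other 5 arrays. Of the 7 member probe sets, 0 passed limma, 0 had an unadjusted p under 0.05 and 0 passed the plain test. Of all probe sets, 0% passed limma, 1.68% had an unadjusted p under 0.05, and 0 passed the plain test.

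The mating effect in Intact-named rats minus that in OVX rats was tested directly, since these arrays share a run. It was 0.31 for Prl (SE 0.13, limma adjusted p = 0.990) and 0.77 for Dlk1 (SE 0.37, limma adjusted p = 0.993). Without Intact-1 and OVX-4 the value for Dlk1 was 0.19 (SE 0.14, limma adjusted p = 0.936), and that for Prl was 0.34 (SE 0.13). For Gh1 it was 0.01 (SE 0.14) on all arrays. Of the 7, 0 passed, against 0.0074% of all probe sets, and 1, Prl, had an unadjusted p under 0.05 (0.0338 in limma), against 4.95% of all. Prl lay near the bottom of these arrays, at percentiles of 3.11 to 5.69, so nothing is read from that value.

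Loss of the ovaries, with estradiol benzoate given, was compared with the intact state in the same run. The titles of the Intact-named arrays carry a different number prefix from those of the OVX arrays. What the prefix stands for is not stated. Gland state and any difference tied to the prefix cannot be told apart. Gh1 was 5.92 ± 0.07 in Intact-named and 5.94 ± 0.13 in OVX rats (SD, n = 6 each), a difference of −0.02 (SE 0.07, limma adjusted p = 0.890). Prl was 3.42 ± 0.13 against 3.43 ± 0.12 (SD, n = 6 each), a difference of −0.01 with a standard error of 0.06. The largest member differences were those of Ghrhr, −0.14 (SE 0.07, limma adjusted p = 0.258) by 1370730_a_at and −0.12 (SE 0.07, limma adjusted p = 0.310) by 1369494_a_at. Of the 7, 0 passed, 0 had an unadjusted p under 0.05 and 0 passed the plain test. Of all probe sets, 0.988% passed limma, 20.4% had an unadjusted p under 0.05, and 2 passed the plain test. The groups overlapped for each of the 7, while 2.64% of all probe sets did not overlap, and the median member difference was −0.02 beside 0.00 over all probe sets.

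**Figure D2:**
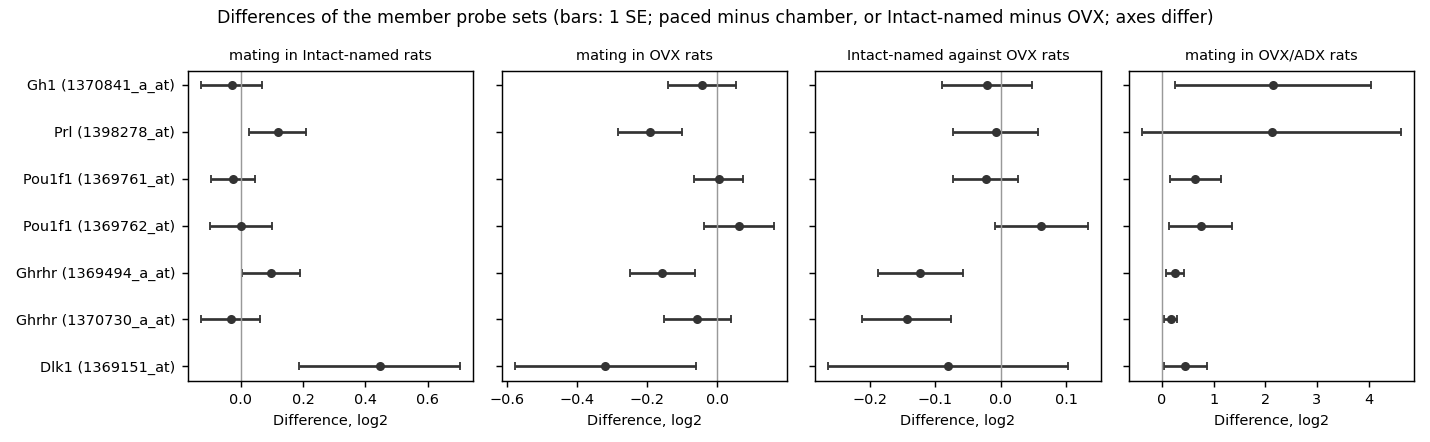
Difference in log2 signal (x axis, a separate scale in each panel) for the 7 member probe sets (y axis), with bars of 1 standard error from limma, for the 4 comparisons that were tested. Differences are within 0.5 in the 3 comparisons of the Intact-named and OVX arrays, and reach 2.15 with standard errors of 1.90 for Gh1 in OVX/ADX rats.

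In OVX/ADX rats the hormone genes turned on a single array. Gh1 was 6.19, 5.96 and 13.52 on the paced arrays 4123, 4125 and 2541 and 6.06, 5.93 and 7.24 on the chamber-exposed arrays 4124, 4126 and 2530. The difference was 2.15 (SE 1.90, limma adjusted p = 1.00). Without 2541 it was −0.34, with the chamber-exposed array 2530 (7.24) still included. With 2530 also set aside, the paced arrays (6.19 and 5.96) overlapped the chamber-exposed ones (6.06 and 5.93). Prl was 4.94, 4.72 and 14.36 on paced and 5.13, 4.62 and 7.89 on chamber-exposed arrays, a difference of 2.13 (SE 2.51, limma adjusted p = 1.00) that became −1.05 without 2541 and −0.04 without both 2541 and 2530.

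Pou1f1 was at 7.02 on 2541 and at 4.50 to 4.79 on the other 5 arrays by 1369762_at, and at 6.30 against 4.20 to 4.47 by 1369761_at. Dlk1 was 9.90 on 2541 against 8.10 to 8.55, and Ghrhr was 5.70 against 4.95 to 5.20 by 1369494_a_at. Array 2541 was the highest of the 6 for 7 of 7 member probe sets, against 16.9% of all probe sets tested, and the count describes the choice of genes as well as the array. Array 2530 differed from it. Its Gh1 and Prl signals were the second highest of the set, while its Dlk1 signal (8.20) was the second lowest. Its Pou1f1 signal lay among those of the remaining arrays by 1369762_at (4.66). By 1369761_at it was second highest by a small margin (4.47 against 4.20 to 4.38 on the remaining arrays). Of the 7 member probe sets, 0 passed limma in the mating comparison of OVX/ADX rats, 0 had an unadjusted p under 0.05 and 0 passed the plain test. Of all probe sets, 0% passed limma, 2.47% had an unadjusted p under 0.05, and 0 passed the plain test.

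**Figure D3:**
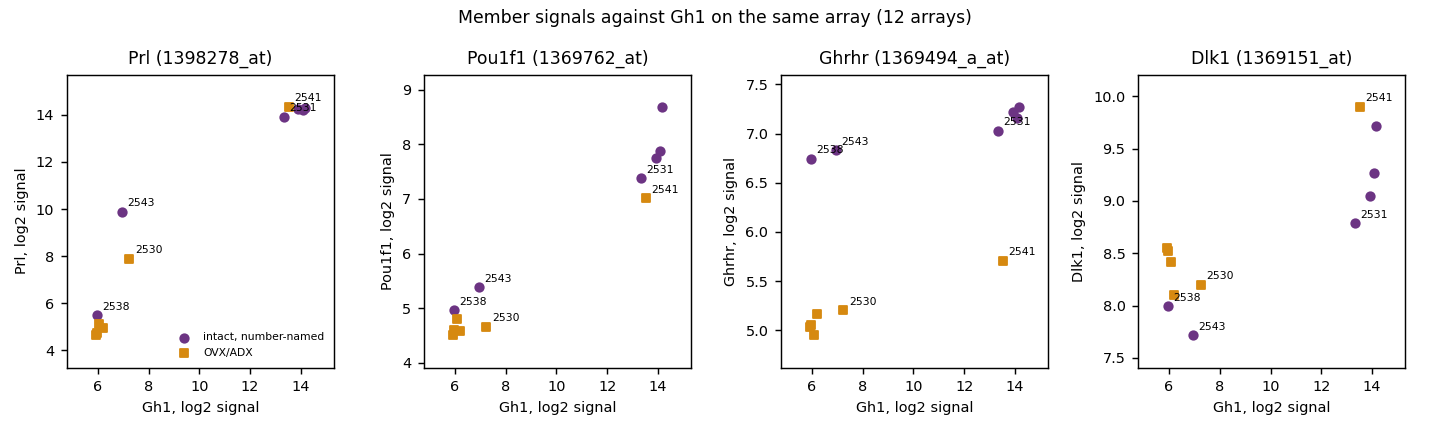
Log2 signals of Prl, Pou1f1, Ghrhr and Dlk1 (y axes) against that of Gh1 (x axes) on the 6 number-named intact arrays (circles) and the 6 OVX/ADX arrays (squares), which were normalized separately. Arrays 2526, 2536, 2539, 2531 and 2541 lie at Gh1 signals over 13, and there Pou1f1 by 1369762_at is over 7, while 2543 and 2530 stand higher over their set's lowest arrays in Prl than in Gh1 or Pou1f1.

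Gh1, Prl and Pou1f1 were thus high on the same 5 arrays, and they parted on 2543 and 2530. On 2526, 2536, 2539, 2531 and 2541 the percentiles of Gh1 and Prl were at least 99.8, and those of Pou1f1 were 50.4 to 70.7 by 1369762_at and 40.2 to 67.1 by 1369761_at. Dlk1 and Ghrhr did not set these 5 arrays apart from all others. Dlk1 was at 72.3 to 90.7 on them, and at 72.7, 74.3 and 74.3 on 4124, 4125 and 4126. Ghrhr by 1369494_a_at was at 31.3 on 2541, below the 41.4 it had on 2538. On 2543 Prl stood at the percentile of 86.2, with Gh1 at 44.4 and Pou1f1 at 20.4 by 1369762_at and 17.3 by 1369761_at. On 2530 Prl stood at 65.1, Gh1 at 54.3 and Pou1f1 at 12.9 and 9.42 by the same probe sets. The arrays form separate clusters, so no correlation test over them is given. Both orders together, 2543 and 2538 lowest in their set and 2541 highest in its own, held for 6 of the 7 member probe sets and for 4.66% of all. These are the orders of Gh1 and Prl, and the genes were chosen on the number-named contrast, so nothing is read from this count.

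Below the number-named arrays, the ranking of the sets depended on the probe set. By median percentile Gh1 stood at 99.9 on the number-named arrays (lowest array 29.6), 37.5 on the OVX/ADX, and 33.3 on the Intact-named and the OVX arrays, where the OVX and Intact-named ranges overlapped, as did those of the number-named and OVX/ADX sets. Pou1f1 by 1369762_at stood at 53.1, 16.8, 15.7 and 12.7 on the number-named, Intact-named, OVX and OVX/ADX arrays. The range of the number-named set (13.1 to 70.7) covered the medians of the Intact-named and OVX sets. By 1369761_at it stood at 49.4, 2.61, 2.64 and 8.45 in the same order of sets. There the number-named range (15.6 to 67.1) lay above those of the Intact-named and OVX sets. Dlk1 ranked the sets as Gh1 did, with 74.1 on the number-named and 73.5 on the OVX/ADX arrays, whose ranges overlapped. It stood at 28.9 and 29.7 in the Intact-named and OVX sets. For each of the 7 probe sets, the number-named arrays had the highest median. The share of all probe sets with that order was not counted, and the genes were chosen from results of the number-named set. Nothing is read from this count.

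Dlk1 was high together with dopamine neuron markers on 2 arrays where the hormones were not. On Intact-1 and OVX-4, Dlk1 was 6.46 and 6.67 and Slc6a3, the dopamine transporter, was 7.51 and 9.03, while on the other 10 arrays of the run Dlk1 was 5.52 to 5.79 and Slc6a3 was 5.38 to 6.01. The hypothalamic neuropeptide genes stood at median percentiles of 62.4 on Intact-1 and 50.2 on OVX-4. On the other arrays of the run they stood at 41.6 to 49.2, so only Intact-1 lay clearly apart. Prl on Intact-1 and OVX-4 was 3.34 and 3.59, inside the range of the other arrays. On the OVX/ADX arrays Dlk1 was over 8 on all 6, with Th between 9.05 and 10.46. The part of dopamine neuron or hypothalamic content in the Dlk1 signal was not tested.

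**Figure D4:**
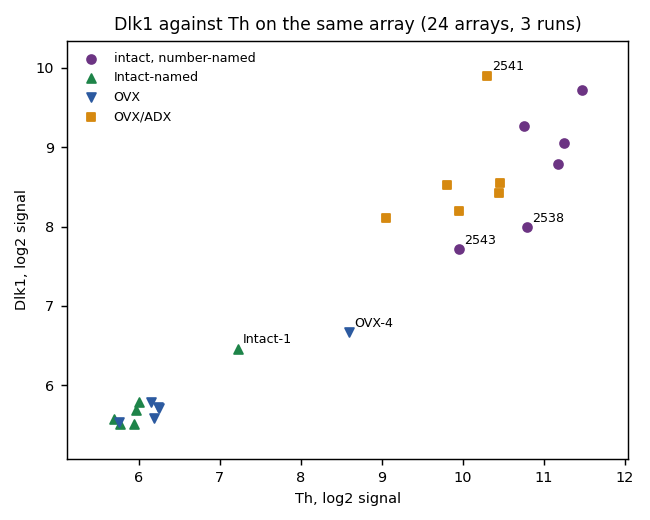
Log2 signal of Dlk1 (y axis) against that of Th (x axis) on the 24 arrays, with marker and colour for the array set; the 3 normalization runs do not share a scale. Intact-1 and OVX-4 lie above the other 10 arrays of their run in both genes, and 2541 has the highest Dlk1 signal of the OVX/ADX arrays without the highest Th.

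Genes of other anterior pituitary cells were high on most of the same arrays. On 2541 the gonadotropin genes Lhb and Fshb read 10.14 and 7.46, against 6.78 to 7.53 and 5.97 to 6.21 on the other OVX/ADX arrays. Pomc, the precursor of corticotropin, read 7.01 against 6.09 to 6.25. In the number-named set 10 of the 10 genes of this list with a probe set were lower on paced arrays (median −1.37), and limma called 1 of them. As for the members, these values are a description, since hormone genes of this contrast were known when the list was made. Fshb was 6.62 ± 0.09 on paced and 8.83 ± 0.23 on chamber-exposed arrays (SD, n = 3 each), a difference of −2.20, and Lhb differed by −2.30. Unlike Gh1, Fshb on array 2531 (6.65) read like the other paced arrays, and Lhb there (8.91) lay between the groups.

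Tshb and Cga, the subunit genes of thyrotropin, split from Gh1 and Prl in OVX/ADX rats. Thyrotropin is also made in the pars tuberalis, the pituitary tissue around the stalk. On 4125 and 4124, where Gh1 was 5.96 and 6.06, Tshb was 10.89 and 11.17 and Cga was 11.28 and 11.71. On 4126 Cga was 9.82 and Tshb 6.50, and on 2530, the array with the second highest Prl, they were the lowest of the 6, at 6.04 and 4.53. On the number-named array 2538, which had the lowest Gh1 and Prl of its set, Tshb was 9.25 and Cga 9.95, again the lowest of the set. In the Intact-named and OVX sets Tshb was 3.24 to 3.63 and Cga 4.38 to 5.01.

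**Figure D5:**
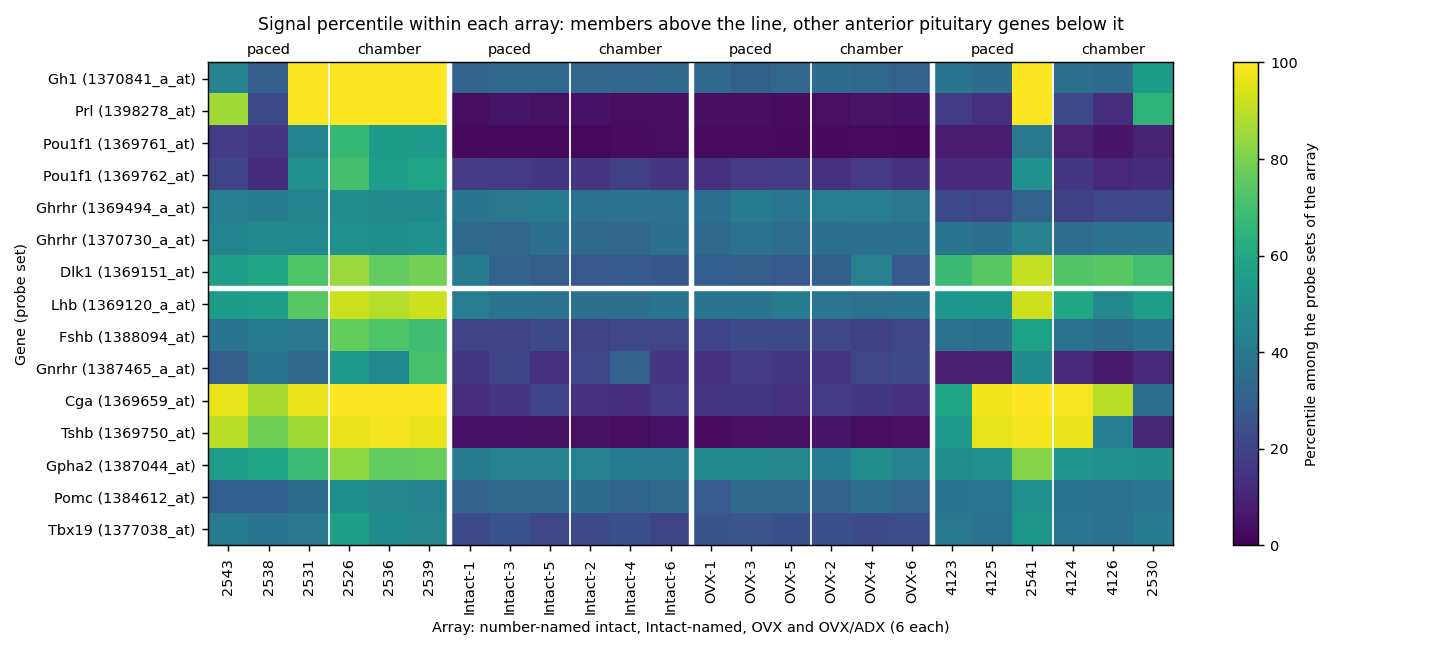
Percentile rank of each probe set within its array (colour scale from 0 to 100), with the 24 arrays on the x axis grouped by set and mating label, the 7 member probe sets on the y axis above the white line and 8 other anterior pituitary genes below it. Gh1 and Prl are near 100 on 2531, 2526, 2536, 2539 and 2541, Cga and Tshb are also high on 4125 and 4124, and the Intact-named and OVX arrays are low for Prl, Pou1f1, Cga and Tshb.

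The wider pathway of the 2 hormones was given by lists of their regulators and effectors. Of 50 listed pathway genes (releasing and inhibiting factors, lineage factors, receptors and signalling, and granule proteins), 42 had a probe set and 39 passed the filter. In limma 0 passed in each of the 5 comparisons, and 0 passed the plain test. Those with an unadjusted p under 0.05 numbered 9 in the number-named set, where 9.33% of all probe sets had one, and 8 for Intact-named against OVX rats, where 20.4% had one. Mating gave 0 in the Intact-named, 1 in the OVX and 1 in the OVX/ADX set, beside 10.7%, 1.68% and 2.47% of all. For the number-named set nothing is read from this, since the lists were made with its results known. The median difference of the 39 in the number-named set was −0.02.

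Ghrh, the releasing hormone itself, was 6.22 to 6.58 on the number-named arrays and differed by −0.02 (SE 0.11, limma adjusted p = 0.968). Sst, or somatostatin, which inhibits growth hormone release, differed by 0.41 there (SE 0.10, limma adjusted p = 0.215). Drd2 was 7.73, 8.15 and 8.46 on the paced arrays 2543, 2538 and 2531 and 9.37, 8.91 and 8.49 on the chamber-exposed ones, a difference of −0.81 (SE 0.24, limma adjusted p = 0.356). It was also 8.46 on 2541 against 6.99 to 7.23 on the other OVX/ADX arrays. Pitx1, a pituitary lineage factor, differed by −0.64 on the number-named arrays (SE 0.13, limma adjusted p = 0.146) and was 6.70 on 2541 against 5.77 to 6.22.

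Among receptors and targets, Ghr and Igf1 varied less than the hormones. Ghr, the growth hormone receptor, was 5.06 to 5.77 on the number-named arrays, and Igf1, a target of growth hormone, was 7.91 to 8.48. Prlr, the prolactin receptor, is also abundant in choroid plexus, and it ranged from 5.22 to 10.78 over the Intact-named and OVX arrays. Ttr, the main choroid plexus marker, ranged from 10.22 to 14.53 on the same arrays. Chga, a granule protein, differed by −0.03 in the number-named set (SE 0.07), and Chgb by −0.71 (SE 0.11, limma adjusted p = 0.0828).

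Likeness to Gh1 was measured as Pearson's r over the 24 arrays after each run's mean was removed, among 13072 other genes. It is a description, since the arrays share runs and most of the spread comes from a few of them. The members themselves had r of 0.97 and 0.96 (Pou1f1 by 1369762_at and 1369761_at), 0.96 (Prl), 0.82 and 0.67 (Ghrhr) and 0.81 (Dlk1). The closest other genes were Six6, a transcription factor of pituitary and eye (0.96), Lhb (0.94), Hepacam2 (0.92), Aldh3a1 (0.91), Sh3bgr (0.91), Elapor1 (0.90), Chgb (0.89) and Palldl1 (0.89). Of the 8 genes closest to Pou1f1, 7 were also on that list, and the other was Klk1b3, a kallikrein (0.93). Six6 was 6.26 to 9.06 on the number-named arrays, 8.53 on 2541 and 5.91 to 6.29 on the remaining OVX/ADX arrays.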

How the data were processed

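RNA of rat tissue labelled midbrain was measured on 24 Affymetrix arrays. Log2 signals were deposited by the authors. The submitters' processing notes name RMA and Affymetrix Expression Console 1.4, whereas the study's methods name GCRMA in GeneSpring. The signals were used without centring. The values were taken to come from 3 normalization runs, judged by the lowest signals, so tests stayed within a run. Of 31099 probe sets, 57 were controls. A probe set was kept when it reached the 20th percentile in 3 or more arrays, which left 27032. Of all, 20832 carry 1 gene symbol, 436 several and 9831 none. Genes other than the members are represented by the probe set of highest mean.

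Groups came from the labels. Differences were fitted in R 4.3.3 with limma 3.58.1 (lmFit and eBayes) and adjusted over all kept probe sets by the Benjamini-Hochberg method at 0.05, tested on simulated data. Intact-named and OVX arrays shared 1 fit. No labels tie arrays to animals beyond their titles, so p-values measure the spread between arrays, whose number limits the precision. The members and gene lists were chosen with earlier results of these data known. Named genes are the members, listed regulators, other pituitary hormones, the 8 genes most like Gh1 or Pou1f1, and leading markers of other tissues. Chgb, Foxo1, Stat5a and further listed genes singled out were chosen after their values were seen. Alternatives covered the filter, normalization, moderation, a plain test, a replicate block and leaving out arrays. Leaving out Intact-1 with OVX-4, and 2541 with 2530, was chosen after seeing the data.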

Additional observations from a re-analysis of the deposited data

Results flagged for a closer look

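Array 2541 lay apart from the other 5 OVX/ADX arrays in each member gene. Its gap to the nearest array, as a share of the range of the 6, was 0.828 for Gh1 (13.52 against 5.93 to 7.24), 0.664 for Prl (14.36 against 4.62 to 7.89), 0.872 and 0.884 for the Pou1f1 probe sets 1369761_at and 1369762_at, 0.664 and 0.648 for the Ghrhr probe sets 1369494_a_at and 1370730_a_at, and 0.751 for Dlk1. Dlk1 also had an array apart in the other run, Intact-1 among the Intact-named arrays (0.709) and OVX-4 among the OVX arrays (0.775). Chance puts about 1 in 20 such sets past Dixon's 95% limit, 28 sets of 6 were examined, and sets of 1 gene or of 1 array are not independent.

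The paced arrays of intact rats moved in opposite directions in the title sets for 2 probe sets. For Ghrhr by 1369494_a_at every paced array was above every chamber-exposed array in the Intact-named set (difference 0.0962) and below in the number-named set (−0.35). For Dlk1 the differences were 0.446 (0.205 without Intact-1) and −1.18. By its other probe set, 1370730_a_at, Ghrhr differed by −0.03 and −0.28, with the same sign and with overlapping groups in the Intact-named set. The genes were chosen on the number-named contrast, and the share of all probe sets with such opposite directions was not counted. The difference between the sets was not tested, and nothing is read from this pattern.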

How the results depend on the processing

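In each of the 4 tested comparisons, the count of member probe sets called stayed at 0 under every alternative run. The lowest adjusted p of any member over them was 0.148, for Intact-named against OVX rats. The pathway count in number-named rats was 0 under the other alternatives and ranged from 0 to 1 when arrays were left out in turn, the 1 being Chgb without 2531 (−0.83, limma adjusted p = 0.0306). Without Intact-5, that count for Intact-named against OVX rats went from 0 to 2, namely Foxo1 (0.54, limma adjusted p = 0.0168, from 0.46 and 0.0508 on all arrays) and Stat5a (−0.34, limma adjusted p = 0.0431, from −0.31 and 0.0643). Member differences that were not called changed sign in 13 of 96 values for mating in Intact-named rats, 7 of 96 in OVX rats, 12 of 145 for Intact-named against OVX rats and 8 of 89 in OVX/ADX rats, and in 0 of 82 for the number-named set. With arrays left out in turn, Gh1 ranged from −0.34 (without 2541) to 3.44 in OVX/ADX rats and from −7.59 (without 2531) to −3.90 (without 2538) in the number-named set. The number-named set had the highest median for 7 of 7 probe sets by percentile, by quantile normalization of the 24 arrays and by the deposited signals. Since the genes were chosen from that set and no share over all probe sets was counted, nothing is read from this.

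The count over all probe sets for Intact-named against OVX rats, 267, is fragile. It ranged from 1 (without OVX-1 or OVX-4) to 815 (without Intact-5), was 2 in the plain test and 153 after quantile normalization. A replicate block on the title number gave 375 and 0 members called (Gh1 −0.02, limma adjusted p = 0.896). The numbers do not pair the arrays, since same-numbered arrays correlated at −0.07 to 0.20 and only 2 of 6 correlated best with their own number. Without detection calls, low signals such as Prl at 3.25 to 3.63 cannot be set against background.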
